A study of Mus musculus with 6 samples.

Results

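A set of 10 genes was followed in hematopoietic stem cells (HSCs) of the mouse bone marrow: H19, Meg3, Igf2r, Ndn, Gnas, Grb10, Peg3, Mest, Dlk1 and Plagl1. All are imprinted in the mouse, and several have been tied to HSC quiescence. Members were the transcript clusters whose platform symbol was exactly that of a listed gene, and the brightest cluster by its mean over the 6 arrays was used. Of the 10 genes listed, 8 had such a cluster, and each of the 8 had exactly 1. They stand among 30142 genes that the array names with 1 symbol. The clusters of H19 and Meg3 carry further symbols beside the gene's own, so neither gene had a value here. Peg3 and Mest lay below 4.09, the limit under which a cluster was taken as too dim to judge, and 6 genes could be tested.

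The tested cells came from Cdk19 knockout mice (CDK19-/-, 3 arrays) and were set against wild-type mice (WT, 3 arrays), all 6 to 8 weeks old. In both groups, lineage-negative marrow cells of the tibia, femur and ilium were stained for HSC markers and sorted, and biotin-labelled RNA was put on a whole-transcript array. The Mediator complex, to which the kinase CDK19 belongs, joins transcription factors to RNA polymerase II. The labels give no sex, strain or sort markers, no number of animals per array, and no account of which part of the gene was removed or in which cells. The titles call the 3 arrays of each group biological replicates, without saying how animals were divided among them. P-values therefore measure the spread between these arrays, which may be partly technical. Levels are the log2 values that the authors deposited, with a log base read from their range.

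An imprinted gene is used mainly from the copy of 1 parent, because DNA methylation set in the egg or sperm marks a control region near it. Many such genes act on growth. H19 and Meg3 give long noncoding RNAs from the maternal copy, and in mouse HSCs the H19 domain has been described as holding back signalling from insulin-like growth factor 2 (IGF2) through its receptor IGF1R. The array reads the RNA of both parental copies together, so it says nothing on which copy was used. In these sorted cells, fewer cells of a type and less RNA per cell cannot be told apart.

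On the arrays, Cdk19 itself had a level of 11.47 ± 0.05 in knockout and 12.44 ± 0.06 in wild-type HSCs (SD, n = 3 each), a log2 change of -0.97 (limma, Benjamini-Hochberg adjusted p = 3.2e-04). Arrays of the same genotype correlated at 0.997 to 0.998 across clusters and arrays of different genotype at 0.994 to 0.995. Of the HSC and early progenitor markers, all 10 measured were bright enough to test. Stromal and bone-forming cell markers were mostly dim, with 8 of 12 below the limit, Cxcl12, Lepr and Prrx1 among them. Of the endothelial markers 6 of 10 were below it, including Cdh5 and Kdr. Markers of blood lineages were mostly above it, with 9 of 10 measured for granulocytes, 7 of 9 for monocytes and 7 of 8 for B cells. For erythroid cells 6 of 7 were above it, for megakaryocytes 5 of 7 and for T cells 4 of 7. The number of arrays limits the precision of every value.

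Of the 6 members tested, Igf2r fell in the knockout HSCs and 0 rose, while Ndn, Gnas, Grb10, Dlk1 and Plagl1 did not pass (limma, Benjamini-Hochberg adjusted p under 0.05). Among all 39591 clusters tested, 4.83% were called lower and 2.96% higher. Over the brightest cluster of each named gene, 9.38% were called in either direction, so 1 call among 6 genes (16.7%) does not set the members apart. At an unadjusted p under 0.05, 1 member was lower and 1, Plagl1, was higher. The share of all clusters at that unadjusted threshold was not counted. Such counts, here and for the markers and lists that follow, therefore have no baseline. The median log2 change of the 6 was 0.075, against 0.00 over all clusters tested. The genotypes did not overlap for 3 of the 6 members (Igf2r, Gnas and Plagl1), and 26.5% of all tested clusters showed such a gap.

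**Figure D1:**
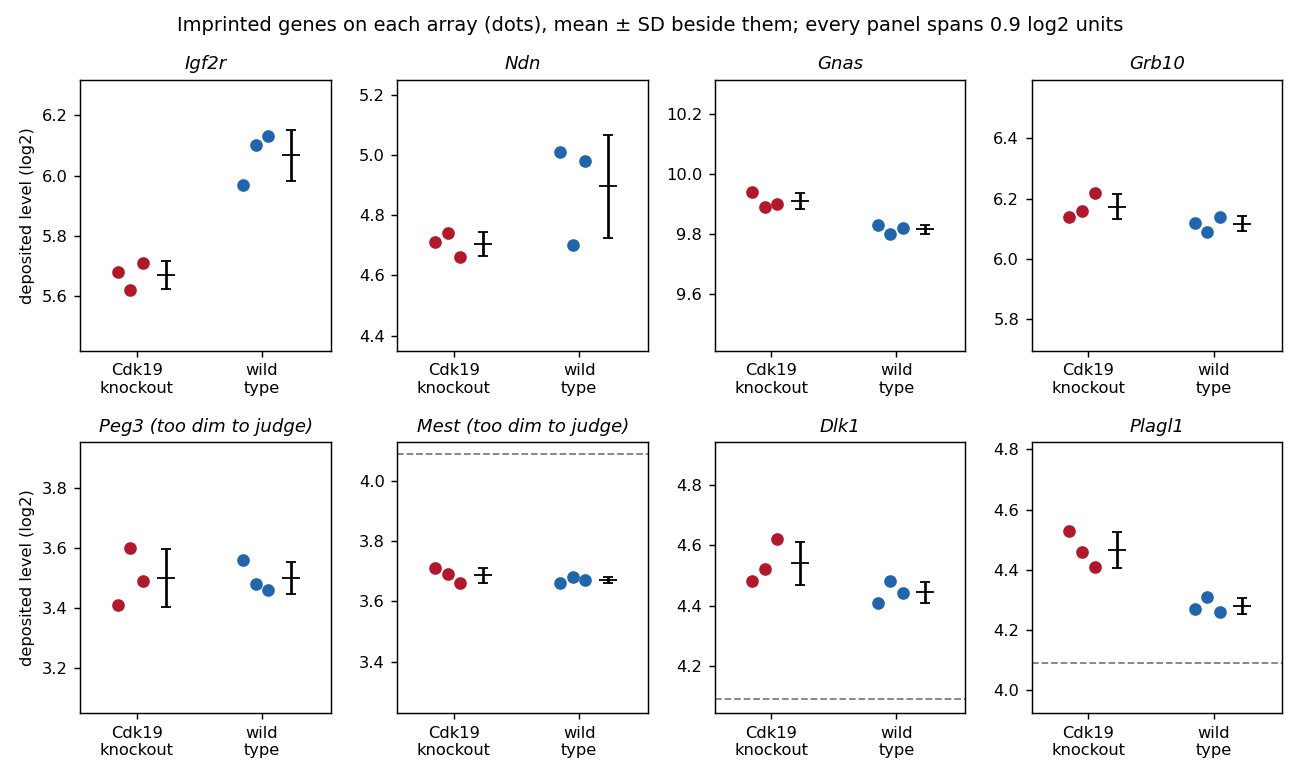
Deposited log2 level of each of the 8 genes with a cluster of its own, on each array (dots), with the mean ± SD of the 3 arrays beside them; knockout is left of wild type, every panel spans the same width on the log2 axis, and the dashed line, where in range, is the limit of 4.09. Igf2r lies lower in all 3 knockout arrays, Gnas and Plagl1 lie slightly higher in all 3, and the groups overlap for the other genes.

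Igf2r (chromosome 17) encodes the cation-independent mannose 6-phosphate receptor, which carries enzymes to lysosomes and takes up IGF2 for breakdown. In the mouse it is expressed from the maternal copy. Its level was 5.68, 5.62 and 5.71 in the knockout arrays, against 5.97, 6.10 and 6.13 in the wild-type arrays. All 3 knockout values lay below all 3 wild-type values. Igf2r fell by 0.40 on the log2 scale (SE 0.07; 95% interval -0.57 to -0.23; limma, Benjamini-Hochberg adjusted p = 0.021), which is 1.32-fold lower. The mean was 5.67 ± 0.05 in knockout and 6.07 ± 0.09 in wild type (SD, n = 3 each).

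The Igf2r call was lost on leaving out any 1 of 4 of the 6 arrays. Leaving out knockout array 1 or 2 gave an adjusted p (limma) of 0.059 or 0.064, and leaving out wild-type array 2 or 3 gave 0.086 or 0.090. The call held on leaving out knockout array 3 (0.047) or wild-type array 1 (0.035). The size of the change moved little in these 6 runs, between -0.445 and -0.365. Calls over all clusters also dropped in these runs, from 1172 higher and 1912 lower to 542 to 971 and 764 to 1508. Some cell type markers were also called, against 9.38% called in either direction over all named genes. The marker lists are short, so 1 or 2 calls do not set a list apart. Of the B cell markers 4 of 7 tested were called lower, and their mean log2 level over 8 measured genes was 5.57 to 5.59 in knockout against 5.94 to 6.00 in wild-type arrays, with Ms4a1 too dim. Of the megakaryocyte markers 3 of 5 tested were called higher (mean level over 7 measured 6.27 to 6.28 in knockout, 5.88 to 5.91 in wild type), with Ppbp and Gp6 too dim. Of the HSC markers, Kit, Hlf and Meis1 were called lower (mean level over 10 measured 8.98 to 9.01 in knockout, 9.19 to 9.25 in wild type). Of the granulocyte markers 2 of 9 tested, Prtn3 and Ctsg, were called higher (mean level over 10 measured 8.44 to 8.59 in knockout, 8.27 to 8.39 in wild type), with Cebpe too dim. Of the erythroid markers 1 of 6 tested, Car1, was called lower (mean level over 7 measured 5.56 to 5.59 in knockout, 5.72 to 5.78 in wild type), with Slc4a1 too dim. Of the endothelial markers 1 of 4 tested, Pecam1, was called lower (mean level over 10 measured 5.24 to 5.27 in knockout, 5.28 to 5.32 in wild type). Of the monocyte (7 tested), T cell (4) and stromal (4) markers, 0 were called by limma, and at an unadjusted p under 0.05 1 monocyte and 1 T cell marker were higher and 1 stromal marker was lower. The part of these marker differences in the Igf2r result was not tested.

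In the mouse, silencing of the paternal Igf2r copy depends on Airn, a long noncoding RNA that starts inside Igf2r and runs antisense across its promoter. Airn had 4.08, 4.15 and 4.04 in knockout against 4.17, 4.18 and 4.20 in wild type. These values were lower in all 3 knockout arrays by a small margin, but the mean of 4.14 is just above the dim limit. The difference did not pass (log2 change -0.09; 95% interval -0.24 to 0.05; limma, adjusted p = 0.45). The sources used here do not say whether the labelled target kept the strand, so the 2 overlapping genes are not fully separable. Of the neighbouring transporter genes on chromosome 17, Slc22a2, chosen after its values were seen, differed by 0.14 (adjusted p = 0.51), and Slc22a3 was not analysed here.

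The promoters of Igf2r and Airn are shown because the opposite strands of 1 locus are read from them, and that of Plagl1 because its knockout values lay on the other side of wild type. Each window runs from 250 bases before to 50 after the RefSeq start (GRCm38.p6), 5′ to 3′ on the gene's strand, with every CG, the site of DNA methylation, in capitals. The windows are chr17:12769657-12769956 (minus strand) for Igf2r, chr17:12741061-12741360 (plus strand) for Airn and chr10:13090582-13090881 (plus strand) for Plagl1.
Igf2r: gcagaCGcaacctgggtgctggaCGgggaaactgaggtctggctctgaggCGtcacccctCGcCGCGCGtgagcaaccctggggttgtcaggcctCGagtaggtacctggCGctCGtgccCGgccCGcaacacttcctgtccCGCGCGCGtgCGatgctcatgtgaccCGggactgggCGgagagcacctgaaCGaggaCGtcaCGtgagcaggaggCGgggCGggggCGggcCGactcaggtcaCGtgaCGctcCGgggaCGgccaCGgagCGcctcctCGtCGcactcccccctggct
Airn: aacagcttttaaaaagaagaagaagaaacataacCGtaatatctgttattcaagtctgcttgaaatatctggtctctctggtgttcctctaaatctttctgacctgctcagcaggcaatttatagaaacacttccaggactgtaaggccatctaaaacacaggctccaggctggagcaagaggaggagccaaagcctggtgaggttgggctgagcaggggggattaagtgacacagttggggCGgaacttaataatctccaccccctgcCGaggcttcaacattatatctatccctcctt
Plagl1: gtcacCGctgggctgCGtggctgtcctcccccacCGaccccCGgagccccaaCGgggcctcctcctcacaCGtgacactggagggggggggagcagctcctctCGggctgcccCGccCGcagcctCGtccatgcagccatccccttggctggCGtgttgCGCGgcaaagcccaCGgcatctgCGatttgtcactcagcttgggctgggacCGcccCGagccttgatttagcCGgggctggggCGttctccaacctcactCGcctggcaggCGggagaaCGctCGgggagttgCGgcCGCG

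The Igf2r window held 34 CG pairs, and 7.7% of all 32851 promoter windows of this length held at least as many. Plagl1 had 26 (16.9% of windows) and Airn 3 (76.7%), against a median of 7 over all windows. The hexamer TGCCGC, which the imprint-protecting protein ZFP57 binds when methylated, was searched on both strands (also as GCGGCA). It occurred 1 time in the Plagl1 window and in neither of the others, and 11.6% of all windows held it. These are counts of letters only, since no methylation was measured. Bases outside the windows of 300 were not searched, so the counts need not describe the control region of a domain.

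By the likeness of its profile over the 6 arrays, each cluster centred on its own mean, Igf2r lay closest to Hoxa3 among 20278 other named clusters (root mean square distance 0.018 on the log2 scale). Hoxa3 is a homeobox gene. It had 5.02, 4.96 and 5.08 in knockout against 5.32, 5.49 and 5.50 in wild type. Rbl2, encoding the pocket protein p130, was the next (distance 0.026), at 10.59, 10.51 and 10.60 against 10.90, 11.06 and 11.02. Both were picked for sharing the profile of a called gene, which fixed the direction and size of their differences (-0.42 and -0.43), so these are a description with no test.

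Of the members that bear on growth signalling, Grb10 encodes an adaptor that binds the insulin and IGF1 receptors and dampens them. Its level was 6.14, 6.16 and 6.22 in knockout, against 6.12, 6.09 and 6.14 in wild type. The arrays overlapped and the difference did not pass (log2 change 0.06; 95% interval -0.09 to 0.20; limma, adjusted p = 0.66). Of its neighbours on chromosome 11, Ddc differed by 0.04 (limma, adjusted p = 0.80) and Cobl was too dim. The ligand gene Igf2, which shares a domain with H19, was too dim to judge, with 3.81 to 3.93 in knockout and 3.85 on every wild-type array. The signalling receptor gene Igf1r had 10.88, 10.60 and 10.65 in knockout against 10.72, 10.82 and 10.81 in wild type, which overlap (log2 change -0.07; 95% interval -0.28 to 0.13; limma, adjusted p = 0.70). The insulin receptor gene Insr was not analysed here.

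Gnas encodes the stimulatory G protein alpha subunit, which couples receptors to cyclic AMP, and several imprinted transcripts start in its locus on chromosome 2. It had 9.94, 9.89 and 9.90 in knockout, against 9.83, 9.80 and 9.82 in wild type. All 3 knockout values lay above the wild-type values, yet the difference did not pass (log2 change 0.09; SE 0.05; 95% interval -0.03 to 0.21; limma, adjusted p = 0.35). A cluster of this kind may sum several transcripts of the locus, so a shift between them may not show. Which of them its probes cover was not examined. The antisense transcript Nespas was too dim. Stx16, the protein-coding gene upstream of Gnas, fell by 0.29 (adjusted p = 0.029), a call lost without any 1 of the 6 arrays (adjusted p 0.052 to 0.13).

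Ndn and Plagl1 are known as brakes on the cell cycle. Ndn, encoding necdin, is a p53 target reported to restrain HSC cycling in the mouse. It had 4.71, 4.74 and 4.66 in knockout, against 5.01, 4.70 and 4.98 in wild type. Wild-type array 2 lay among the knockout arrays, and the groups overlapped. The difference did not pass (log2 change -0.19; 95% interval -0.42 to 0.04; limma, adjusted p = 0.32). Without that array the change was -0.29 and the adjusted p was 0.11. Leaving out wild-type array 1 or 3 instead shrank the change to -0.14 or -0.15 (limma, adjusted p = 0.56 or 0.58). In the same chromosome 7 domain, Ube3a, a ubiquitin ligase gene, differed by -0.20 (adjusted p = 0.14), with every knockout value below every wild-type value. Magel2 and Mkrn3 were too dim. Atp10a and Peg12, named after their values were seen, differed by 0.17 (adjusted p = 0.19) and 0.04 (adjusted p = 0.80), and Atp10a was higher in all 3 knockout arrays.

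Plagl1 (also Zac1) encodes a zinc finger factor that can arrest the cell cycle and that regulates other imprinted genes. It had 4.53, 4.46 and 4.41 in knockout, against 4.27, 4.31 and 4.26 in wild type. Every knockout value exceeded every wild-type value. The difference passed at an unadjusted p of 0.021 but not after adjustment (log2 change 0.19; SE 0.06; 95% interval 0.04 to 0.34; limma, adjusted p = 0.14). Its mean of 4.37 was the lowest of the tested members, close to the array medians of 4.40 to 4.48. Phactr2, beside Plagl1 on chromosome 10, differed by -0.20 (adjusted p = 0.20), with every knockout value below every wild-type value.

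Dlk1 encodes a membrane protein related to Notch ligands and lies beside Meg3 on chromosome 12. It had 4.48, 4.52 and 4.62 in knockout, against 4.41, 4.48 and 4.44 in wild type. The groups met at 4.48, and the difference did not pass (log2 change 0.10; 95% interval -0.06 to 0.25; limma, adjusted p = 0.47). Dio3, a deiodinase gene at the far end of that domain, was too dim, and Rian, Mirg and Rtl1 had no cluster named with their symbol alone.

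Peg3, a zinc finger gene, and Mest, which encodes a hydrolase-like membrane protein, are both used from the paternal copy. Peg3 had 3.41, 3.60 and 3.49 in knockout against 3.56, 3.48 and 3.46 in wild type. Mest had 3.71, 3.69 and 3.66 in knockout against 3.66, 3.68 and 3.67 in wild type. Both overlapped between genotypes, and at this signal neither presence nor change can be judged. The neighbours of Peg3, Usp29 and Zim1, were too dim as well, while Copg2, beside Mest, differed by -0.05 (adjusted p = 0.70). Klf14, of the Mest domain, was too dim.

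**Figure D2:**
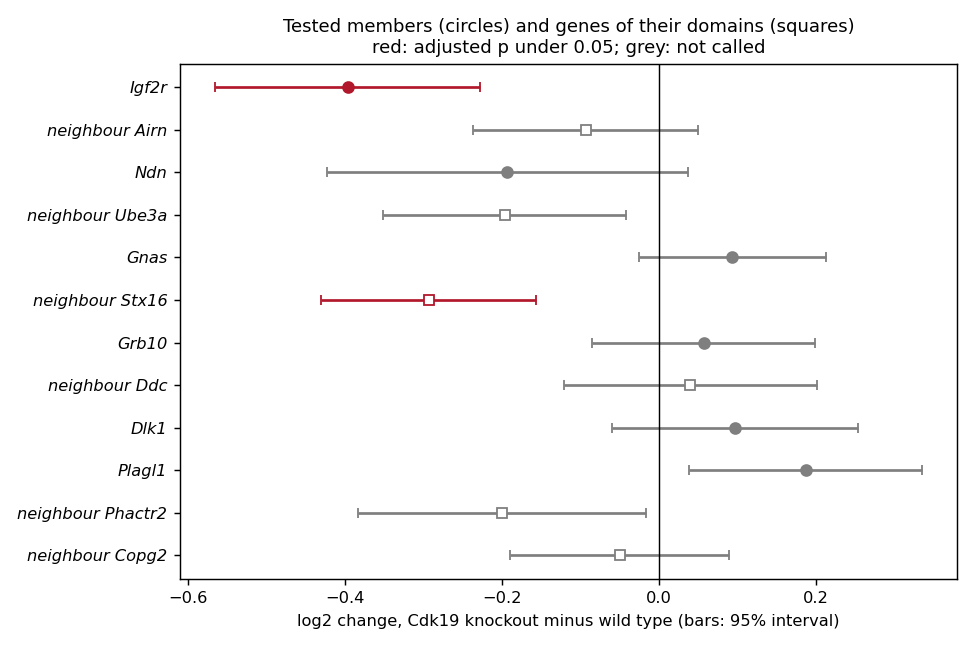
Log2 change, knockout minus wild type, with its 95% interval, for the 6 tested members (circles) and for some tested genes of the members' imprinted domains (squares). The squares are Airn, Ube3a, Stx16, Ddc, Phactr2 and Copg2, and red marks an adjusted p under 0.05. Igf2r at -0.40 is the member whose call passed, Stx16 beside Gnas at -0.29 is the neighbour that did, and the other changes lie between -0.20 and 0.19.

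Across 69 other imprinted genes and genes of imprinted domains, 61 had a cluster of their own and 42 were bright enough to test. Of these, 3 rose, 3 fell and 36 did not pass, or 14.3% called against 9.38% over all named genes, with a median log2 change of 0.02. The list was chosen with earlier results of these data known, so its share is a description with no test. Gatm, encoding the first enzyme of creatine synthesis, rose by 0.67, with 8.90, 8.81 and 8.99 in knockout against 8.18, 8.27 and 8.24 in wild type (adjusted p = 0.0031). Its call was kept in all 6 runs that left out 1 array. The serotonin receptor gene Htr2a rose by 0.57 (adjusted p = 0.027) and Blcap, which hosts the imprinted gene Nnat, by 0.40 (adjusted p = 0.044). The genes that fell were Tspan32 with -0.46 (adjusted p = 0.015), Osbpl5 with -0.31 (adjusted p = 0.048) and Stx16. Gatm, Tspan32 and Osbpl5 are known as imprinted mainly in the placenta.

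Most of these calls did not withstand the loss of 1 array. Osbpl5, Stx16 and Blcap lost theirs in each of the 6 runs. Htr2a kept it only without wild-type array 3, and Tspan32 lost it without knockout array 1 or wild-type array 1 or 3. Cdkn1c, which encodes the cell cycle inhibitor p57 and is maternally expressed, had 5.19, 5.21 and 5.14 in knockout against 5.09, 5.13 and 5.20 in wild type and did not pass (adjusted p = 0.79). Its value is given beside Kcnq1ot1, the long noncoding RNA of the same domain. That RNA was lower in all 3 knockout arrays (7.82, 7.64 and 7.43 against 8.02, 8.04 and 8.12) without passing (log2 change -0.43; adjusted p = 0.059). Both genes were chosen after their values were seen.

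**Figure D3:**
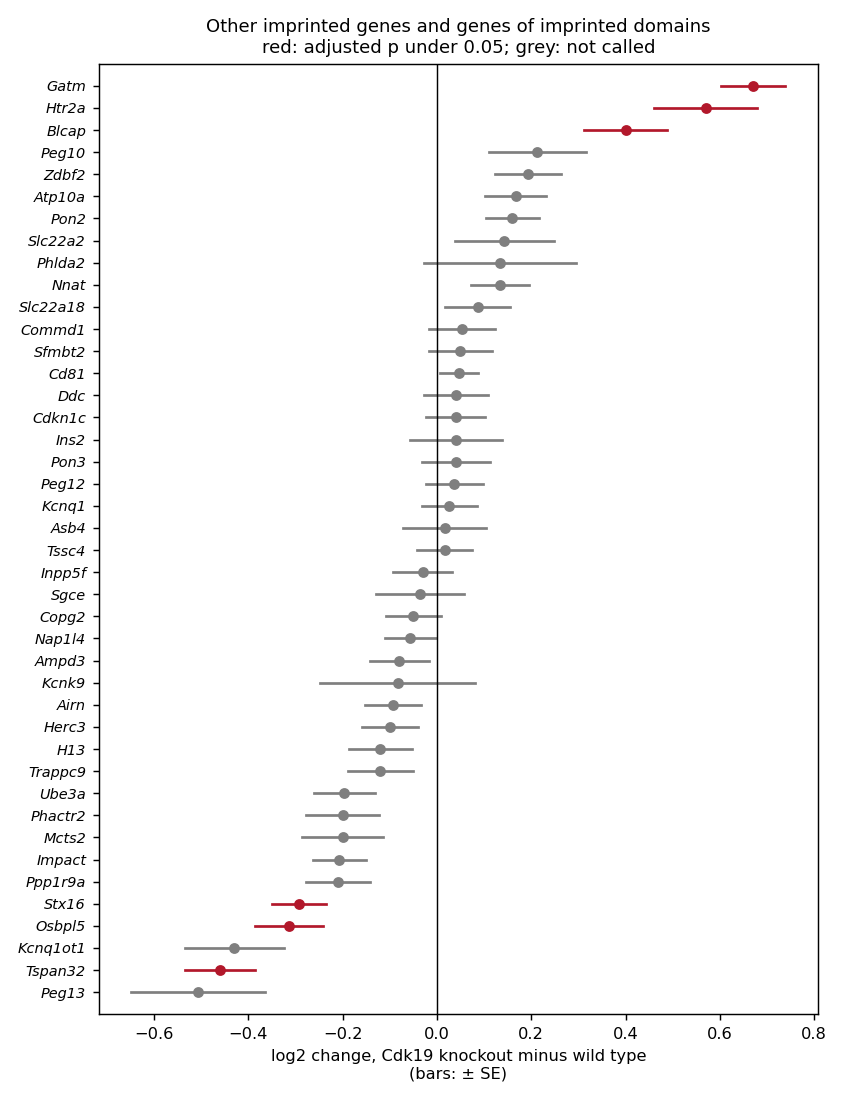
Log2 change ± SE of the 42 tested imprinted genes and genes of imprinted domains other than the members, sorted by size, knockout minus wild type; red marks an adjusted p under 0.05. Gatm at 0.67 is the highest and Peg13 at -0.51, which was not called, the lowest, and 3 genes in each direction are red.

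For the signalling that Grb10, Igf2r and H19 bear on, 37 genes of the IGF and insulin axis were listed, from ligands, binding proteins and receptors to the kinases and FOXO factors inside the cell, and 24 were tested. Of these, 2 rose, 0 fell and 22 did not pass (8.3% called by limma, against 9.38% over all named genes; at an unadjusted p under 0.05, 2 were higher and 4 lower). Irs2, an adaptor that carries the signal of the IGF1 and insulin receptors to PI3 kinase, rose 2.56-fold. It had 12.48, 12.43 and 12.45 in knockout against 11.21, 11.09 and 10.99 in wild type (log2 change 1.36; SE 0.07; limma, adjusted p = 2.1e-04). Foxo1, a transcription factor that this pathway restrains, rose by 0.91 (adjusted p = 0.0014). Both calls held in all 6 runs that left out 1 array. The median over the 24 genes was -0.03. The kinase genes Akt1, Akt2 and Mtor, picked after seeing their values, differed by 0.10, 0.08 and -0.08 and did not pass. The other FOXO genes tested, also picked after seeing their values, lay on the other side from Foxo1 without passing. Foxo3 differed by -0.28 (limma, adjusted p = 0.063) and Foxo4 by -0.18 (adjusted p = 0.26).

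Proteins that set or protect methylation at imprints formed the last list, with 14 of 17 genes tested. Of these, 3 fell and 1 rose (28.6% called, against 9.38% over all named genes; median log2 change -0.08). This short list too was chosen with earlier results of these data known. Its share is a description with no test and does not set the list apart. Dnmt3b, a methyltransferase that sets new methylation, fell by 0.42, with 8.43, 8.36 and 8.43 in knockout against 8.77, 8.88 and 8.82 in wild type (adjusted p = 0.0097). On leaving out wild-type array 2 or 3 it no longer passed (adjusted p = 0.051 and 0.052). Arid4a, a chromatin protein, fell by 0.38 (adjusted p = 0.0094) and no longer passed on leaving out wild-type array 3 (0.052). Setdb1, which methylates histone H3 at silenced regions, fell by 0.26 (adjusted p = 0.031), and Smchd1, a chromatin silencer, rose by 0.28 (adjusted p = 0.040). Both lost their call on leaving out any 1 array, and Smchd1 also when arrays were set to the same median (adjusted p = 0.12). Dnmt1, which copies methylation after replication, differed by -0.09 (adjusted p = 0.29). Trim28, the partner of ZFP57, differed by 0.00 (95% interval -0.10 to 0.10), and Zfp57 itself by -0.04 (limma, adjusted p = 0.79). For Zfp445, a zinc finger gene, every knockout value lay below every wild-type value without passing (log2 change -0.33; limma, adjusted p = 0.088). Dnmt1, Trim28, Zfp57 and Zfp445 were chosen after their values were seen.

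**Figure D4:**
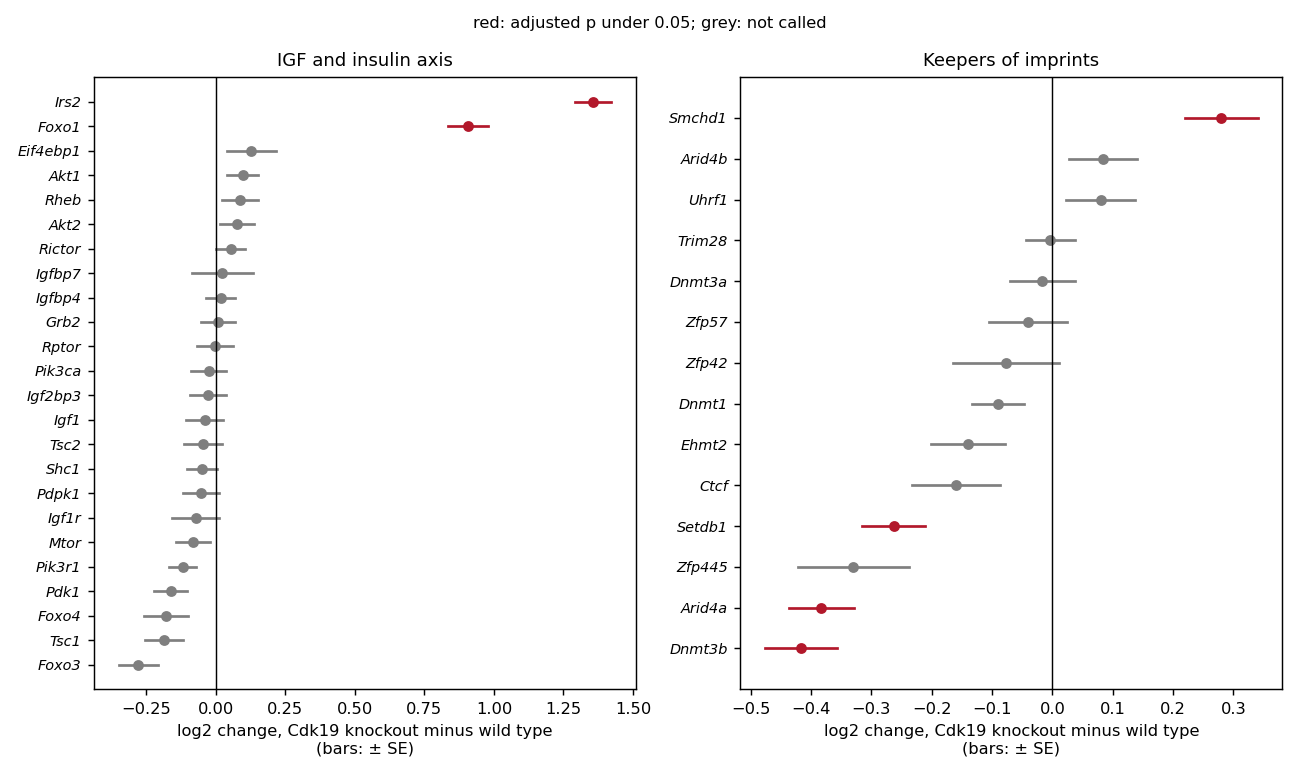
Log2 change ± SE, knockout minus wild type, of the 24 tested genes of the IGF and insulin axis and of the 14 tested keepers of imprints; red marks an adjusted p under 0.05. Irs2 at 1.36 and Foxo1 at 0.91 stand apart from the rest of the axis, and among the keepers Dnmt3b, Arid4a and Setdb1 lie lower and Smchd1 higher.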

How the data were processed

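Per the labels, each array measured total RNA of sorted mouse HSCs. The authors deposited log2 values for 65956 transcript clusters, sets of probes assigned to 1 gene or transcript, from 2.04 to 19.93 with 2 decimals. Per the submitters' processing notes MAS5 was named, with no version or role. The sources used here do not give background correction, probe summary, normalization, log base or genome build, and fold sizes assume base 2.

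The platform annotation, with repeated symbols collapsed, gave 1 symbol to 30604 clusters and several to 2146, and 33206 had none. Symbols of 827 clusters were updated through the RefSeq gene table. Clusters with several symbols were not named. Of the members, 9 of 10 had a RefSeq promoter.

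The dimmest 40% of clusters by mean over 6 arrays (below 4.09) were left out. Knockout and wild type were compared with limma 3.58.1 (R 4.3.3), using genotype alone and an intensity trend. Two-sided p-values were adjusted by Benjamini-Hochberg across the 39591 clusters kept. SE and 95% intervals are moderated. The pipeline was tested on simulated data. Tables used Python 3.11.15 and pandas 2.3.3, and plots matplotlib 3.10.9. Alternatives were another normalization, scaling, filter, prior and cluster choice, a replicate block, and each array left out. Named were all members, genes of their domains, Igf1r, all called list genes and the nearest 2 profiles of called members. The members and lists were chosen with earlier results of these data known.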

Additional observations from a re-analysis of the deposited data

How the results depend on the processing

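No change recomputed under the 13 alternatives turned its direction. Igf2r lost its call with the replicate block (log2 change -0.397, adjusted p = 0.077) and in 4 of the 6 runs with an array left out (change -0.445 to -0.365 over all 6), and its unadjusted p was at most 0.0051 in the 12 runs on the same cluster. Over the 13 alternatives its adjusted p ran from 0.014 to 0.090. Members called lower numbered 0 with the block and 0 to 1 with an array left out. The other 5 tested members were called under none of the alternatives that tested them (the stricter filter left out Ndn, Dlk1 and Plagl1). The same-numbered arrays deviated together with correlations of -0.138, -0.097 and 0.025, so the numbers were not taken as pairs. The block gave 630 clusters higher and 1083 lower, against 1172 and 1912. With an array left out these counts were 542 to 971 and 764 to 1508. Other imprinted genes called were then 1 to 2 higher and 0 to 2 lower. In the IGF and insulin axis 1 gene (Foxo3, named after its values were seen) was called lower after quantile normalization and with the stricter filter (limit 4.96, fewer clusters tested). Keepers of imprints called higher were 0 with the block, without the intensity trend, without a filter, after quantile or common-median scaling and with any array left out, while 1 was higher at an unadjusted p under 0.05 in each. Keepers called lower were 0 with the block and 0 to 2 with an array left out, against 4 to 6 at an unadjusted p under 0.05. No share of all clusters was counted at that unadjusted threshold. The cause of these losses was not tested. Dim signal limits Peg3, Mest, Igf2 and several neighbours of the members.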

Other observations

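Some clusters listed a followed gene together with others, so their values belong to no single gene. The cluster that lists H19 and Mir675 had 3.84, 3.99 and 3.83 in knockout against 3.88, 3.75 and 3.88 in wild type, below the limit of 4.09. The cluster that lists Meg3 with 3 microRNA symbols had 4.46, 4.48 and 4.45 in knockout against 4.34, 4.35 and 4.32 in wild type. All 3 knockout values were higher, and the difference of 0.13 did not pass (SE 0.06; limma, Benjamini-Hochberg adjusted p = 0.25). The cluster of the same chromosome 12 domain that lists Rian with 5 other symbols had 4.25, 4.34 and 4.25 against 4.18, 4.17 and 4.17, a difference of 0.11 (adjusted p = 0.37). The cluster that lists Mirg with 10 other symbols, and the one that lists Snrpn and Snurf, were too dim to judge.

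Of the 42 other imprinted genes tested, called or not, the genotypes did not overlap for 18, with 7 higher and 11 lower in knockout. Over all tested clusters 26.5% showed such a gap, and the list was chosen with earlier results known, so this is a description with no test. Peg13 and Impact were among those lower in all 3 knockout arrays without being called. Peg13, a noncoding RNA gene on chromosome 15, had 10.44, 9.92 and 10.05 in knockout against 10.78, 10.54 and 10.61 in wild type (log2 change -0.51; adjusted p = 0.088). Impact, which restrains the amino acid sensor kinase GCN2, differed by -0.21 (adjusted p = 0.086). Both were chosen after their values were seen.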
